A study of Bos taurus with 8 samples.

Results

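The 6 actin genes of cattle, from the sarcomeric to the cytoplasmic isoforms, were described in cultured muscle cells of beef and dairy bulls. They were ACTA1 and ACTC1 (sarcomeric), ACTA2 and ACTG2 (smooth muscle), and ACTB and ACTG1 (cytoplasmic). A probe was taken as theirs where the RefSeq accession that the array gives for it carries 1 of these symbols. This gave 6 of the 21475 non-control probes, 1 for each gene, and all 6 passed the filter on dim probes that left 17631 for testing.

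The cells came from the semitendinosus of bulls aged 15 months, of the breeds Limousin (LIM) and Hereford (HER), which are beef breeds, and of Holstein Friesian (HF), a dairy breed used as the control. All cultures were primary, were enriched for myoblasts by 4 rounds of preplating, which leaves other adherent cells of the muscle among them, and were collected while proliferating, at 80% confluence. RNA was hybridised to 8 arrays, each with a beef breed in 1 channel and HF in the other, on 4 arrays as HER in Cy3 against HF in Cy5 and on 4 as LIM in Cy5 against HF in Cy3. The labels call the 4 arrays of a comparison biological replicates and do not say which HF culture was on which array. The study had 4 bulls of each breed, so that HF bulls recur over the 8 HF channels and the 8 arrays are not all independent. The LIM arrays shared a slide and a dye orientation, and the HER arrays another slide and the opposite orientation, so that breed, slide and dye cannot be told apart between LIM and HER. No spot was saturated, and a channel had 68.8% to 85.2% of its probes well above background.

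Actin assembles from monomers into filaments, and the isoforms differ from each other mainly at the amino end of the protein. The sarcomeric actins form the thin filament on which myosin pulls: ACTC1 is the form of the heart and of developing skeletal muscle, and ACTA1 that of mature skeletal muscle. ACTA2 and ACTG2 are the main actins of vascular and enteric smooth muscle, and ACTA2 is also made by pericytes, myofibroblasts and cultured myoblasts. ACTB and ACTG1 build the cytoskeleton of nearly every cell.

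Values are given on 2 scales. The ratio is log2 of the beef breed over HF on an array, so that 1 unit is a doubling. The signal is the brightness of a channel after background subtraction and dye normalization, in arbitrary units. It was compared only within a probe or, for markers, within a fixed sum of probes, which follows its brightest probes. All 6 probes were well above background in 16 of 16 channels. A gene was called changed at an adjusted p of at most 0.05 (limma, Benjamini-Hochberg over all probes tested) and a fold change of at least 1.3. The beef effect is the mean of the LIM and HER ratios, in which a dye effect of a probe cancels.

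Both sarcomeric actins rose steeply in both beef breeds, the smooth muscle actins stood at about 2-fold of HF, and the cytoplasmic actins lay near the level of HF. In LIM, 4 of the 6 genes were called, all of them higher (ACTA1, ACTC1, ACTA2 and ACTB), where 34.3% of all tested probes were called and 16% were called higher. In HER, 3 of the 6 genes were called, all higher (ACTA1, ACTC1 and ACTA2), where 24.4% of all probes were called and 10.4% were called higher. In the beef effect, 4 genes were called, all higher (ACTA1, ACTC1, ACTA2 and ACTG2), where 38.1% of all probes were called and 17.7% were called higher. The count in LIM was 2 without LIM replicate 2 or without LIM replicate 3, and that of the beef effect was 4 without any of the 8 arrays. In these cultures of mixed cells, fewer cells of a type and less RNA per cell cannot be told apart.

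**Figure D1:**
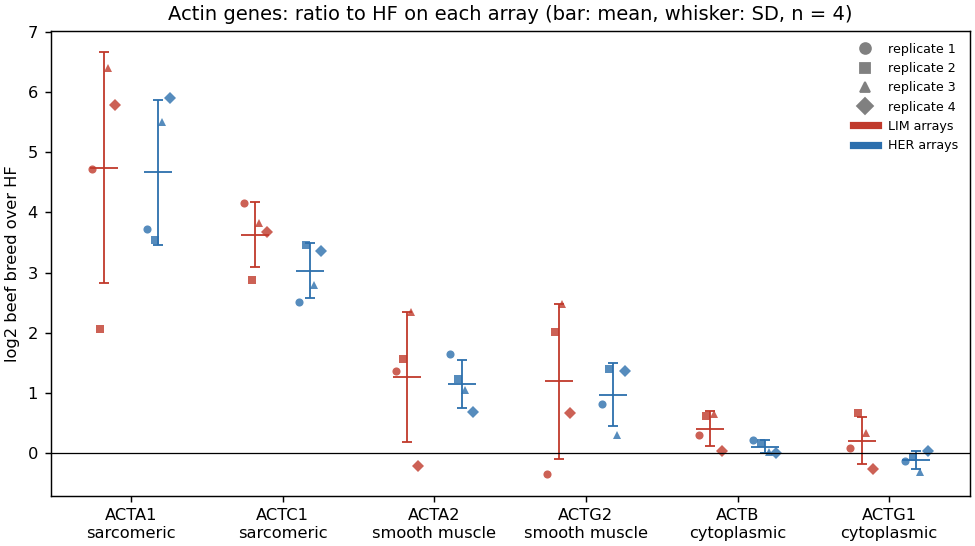
Ratio of the beef breed to HF (log2, y axis) for each of the 6 actin genes (x axis) on the 4 LIM arrays (red) and the 4 HER arrays (blue), with symbols for the replicate number, a bar for the mean and whiskers for the SD. The sarcomeric genes lie between 2.06 and 6.40 on every array. ACTB and ACTG1 lie between -0.31 and 0.68, and in HER the mean of ACTB was at 0.11 with the ratio shown and at -0.77 after normexp with local backgrounds as measured. HER replicate 3 was at -3.36 for ACTB with that setting.

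ACTA1, the actin of mature skeletal muscle, had the largest beef effect of all 17631 probes tested. On the LIM arrays its ratio was 4.72, 2.06, 6.40 and 5.78 in replicates 1 to 4. On the HER arrays it was 3.72, 3.54, 5.50 and 5.89. Every array was far above 0, and the replicate numbered 2 was the lowest of its comparison on both slides. The mean ratio was 4.74 ± 1.92 (SD, n = 4) in LIM, a fold change of 26.7 (adjusted p of 0.00162 by limma), and 4.66 ± 1.21 (SD, n = 4) in HER, a fold change of 25.3 (adjusted p of 0.00465 by limma). Counted from the highest ratio, ACTA1 was number 2 in LIM and number 1 in HER. The beef effect was 4.70 with a 95% interval from 3.60 to 5.80 (adjusted p of 0.000291 by limma). Without LIM replicate 2, the LIM ratio was 5.63, and without LIM replicate 3 it was 4.19. After normexp with local backgrounds as measured, HER was at 3.13 and its call was lost (adjusted p of 0.200 by limma). The beef effect was then 3.68 and kept its call. With outlying local backgrounds replaced, HER was at 4.29 and was called (adjusted p of 0.00415 by limma).

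The spread of the ACTA1 ratio came with a wide spread of the signal in HF. The HF signal on the LIM slide was 1581, 4390, 150 and 526.4 in replicates 1 to 4. On the HER slide the HF signal was 962, 3212, 59.4 and 449. On both slides the HF channel numbered 2 was the brightest and the one numbered 3 the dimmest, and the 8 channels spanned 73.9-fold. Channels of the same number may hold the same HF culture, so that the slides need not be separate evidence of this order. The LIM signal was 41522, 18323, 12601 and 28995, which spanned 3.30-fold, and every LIM channel was above every HF channel of its slide. How many of all tested probes separate so on 1 slide was not counted. The HER signal was 12642, 37235, 2687 and 26687, and HER replicate 3 fell below the HF channel of HER replicate 2, so that the groups overlapped on that slide although the ratio was above 0 on each array. The ACTA1 spots of an array differed by an SD of 0.42 at most (log2, HER replicate 3), below the SD between arrays.

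ACTC1, the sarcomeric actin of heart and of early skeletal muscle, rose less than ACTA1 and varied less. Its ratio was 4.15, 2.88, 3.82 and 3.67 on the LIM arrays. On the HER arrays it was 2.51, 3.46, 2.79 and 3.36. The lowest ACTC1 ratio was still above the highest ratio of any smooth muscle or cytoplasmic actin. The mean was 3.63 ± 0.54 (SD, n = 4) in LIM, a fold change of 12.4 (adjusted p of 0.000337 by limma), and 3.03 ± 0.46 (SD, n = 4) in HER, a fold change of 8.16 (adjusted p of 0.00101 by limma). The beef effect was 3.33 with a 95% interval from 2.96 to 3.70 (adjusted p of 4.93e-05 by limma), which was number 32 of 17631 from the highest. After normexp with local backgrounds as measured, HER was at 2.30 and its call was lost (adjusted p of 0.190 by limma). The beef effect was then 2.90 and kept its call. With outlying local backgrounds replaced, HER was at 2.95 and was called (adjusted p of 0.00219 by limma).

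The HF signal of ACTC1 was 1818, 2067, 1352 and 2490 on the LIM slide, and 1758, 3517, 1026 and 2548 on the HER slide. These 8 channels spanned 3.43-fold, against the 73.9-fold of ACTA1 in the same RNA. The LIM signal was 32219, 15248, 19110 and 31744, and the HER signal was 9994, 38688, 7099 and 26159. ACTC1 was the only actin gene whose 8 beef channels were all above its 8 HF channels, the lowest beef channel by 2.02-fold, a separation that 1.4% of the tested probes had.

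**Figure D2:**
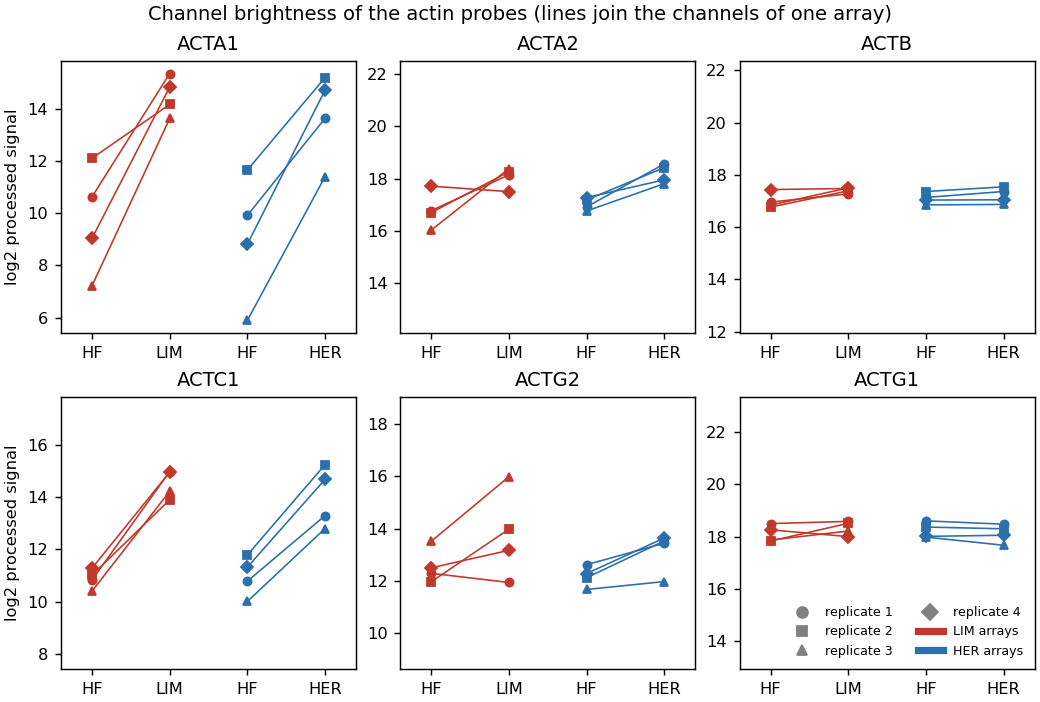
Signal (log2, y axis, equal span in every panel) of each actin probe in the HF and beef channels of the LIM arrays (red) and HER arrays (blue), with lines that join the channels of an array and symbols for the replicate number. ACTA1 starts from HF signals that span 73.9-fold and ends within 15.5-fold in the beef channels, whereas ACTC1 starts from HF signals that span 3.43-fold.

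Among the smooth muscle actins, ACTA2 had a ratio of 1.37, 1.56, 2.35 and -0.21 on the LIM arrays. On the HER arrays its ratio was 1.65, 1.24, 1.05 and 0.68. LIM replicate 4 was the only array on which ACTA2 was not higher in the beef breed, and replicate 4 was also the lowest of the HER arrays. The mean was 1.27 ± 1.07 (SD, n = 4) in LIM, a fold change of 2.41 (adjusted p of 0.0239 by limma), and 1.15 ± 0.40 (SD, n = 4) in HER, a fold change of 2.22 (adjusted p of 0.0449 by limma). The beef effect was 1.21 (adjusted p of 0.00481 by limma). After normexp with local backgrounds as measured, LIM was at 1.39, HER at 0.19 and the beef effect at 0.79, and the calls were lost (adjusted p of 0.148, 0.897 and 0.226 by limma). HER replicate 3 was then at -2.60. With outlying local backgrounds replaced, the HER mean was 1.14 (adjusted p of 0.0530 by limma). The HER call rested on each array, since the adjusted p was between 0.0639 and 0.165 when any HER replicate was left out, and 0.0593 and 0.0640 without LIM replicate 1 or LIM replicate 2. The LIM call was lost without LIM replicate 1, 2 or 3, at an adjusted p of 0.0711, 0.0836 and 0.0997.

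The channels show where the ACTA2 ratios came from. The HF signal on the LIM slide was 112468, 106845, 67142 and 214982, and the LIM signal was 290803, 315484, 343149 and 185904. In replicate 4, HF was the brightest of the 8 HF channels and LIM the dimmest of the 8 beef channels. On the HER slide, HF was at 124048, 149184, 111358 and 158877 and HER at 388020, 351460, 229787 and 254460, with every HER channel above every HF channel. The share of all tested probes with such a separation on 1 slide was not counted. Over the channels of all 8 arrays, beef and HF overlapped for ACTA2.

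ACTG2, the enteric smooth muscle actin, had a ratio of -0.35, 2.01, 2.47 and 0.67 on the LIM arrays. On the HER arrays its ratio was 0.82, 1.41, 0.30 and 1.36. It was higher in the beef breed on 7 of 8 arrays, the exception being LIM replicate 1, on which ACTA2 was clearly higher. The mean was 1.20 ± 1.29 (SD, n = 4) in LIM (adjusted p of 0.0556 by limma) and 0.97 ± 0.52 (SD, n = 4) in HER (adjusted p of 0.121 by limma), and neither passed the threshold. The beef effect of 1.09, a fold change of 2.12, did (adjusted p of 0.0174 by limma). Without LIM replicate 1, the LIM ratio was 1.72 and passed (adjusted p of 0.0128 by limma).

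The signal of ACTG2 was uneven in both channels. The HF signal was 5009, 4009, 11738 and 5806 on the LIM slide, and 6303, 4466, 3266 and 4980 on the HER slide. The LIM signal was 3931, 16192, 65073 and 9222, a 16.6-fold span, whereas the HER signal was 11133, 11835, 4024 and 12792. LIM replicate 3 was the brightest LIM channel and its HF partner the brightest HF channel, so that ACTG2 was bright in both channels of that array. Beef and HF channels overlapped on both slides.

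ACTB, a cytoplasmic actin often taken as a reference gene, had a ratio of 0.31, 0.62, 0.66 and 0.04 on the LIM arrays. On the HER arrays it was 0.23, 0.18, 0.02 and 0.01. All 8 ratios were above 0, as for 11.7% of the tested probes, but those of replicate 4 on both slides and of HER replicate 3 were close to it. The mean was 0.41 ± 0.29 (SD, n = 4) in LIM, a fold change of 1.33 (adjusted p of 0.0350 by limma). With the replicate number as a fixed block, the adjusted p in LIM was 0.0502 (limma) and the call was lost. In HER the mean was 0.11 ± 0.11 (SD, n = 4, adjusted p of 0.548 by limma), and -0.77 after normexp with local backgrounds as measured. HER replicate 3 was at -3.36 with that setting, and the HER mean was 0.11 with outlying local backgrounds replaced. The beef effect of 0.26 had an adjusted p of 0.0414 (limma) but a fold change of 1.20, under the threshold of 1.3. The LIM call was held only without HER replicate 1 or LIM replicate 4, and without each of the other 6 arrays the adjusted p was between 0.0515 (HER replicate 3) and 0.149 (LIM replicate 3).

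ACTG1, the other cytoplasmic actin, was not called in any comparison. Its ratio was 0.09, 0.68, 0.34 and -0.26 on the LIM arrays. On the HER arrays it was -0.13, -0.07, -0.31 and 0.04. The arrays lay on both sides of 0 in each comparison. The mean was 0.21 ± 0.40 (SD, n = 4) in LIM (adjusted p of 0.304 by limma) and -0.12 ± 0.15 (SD, n = 4) in HER (adjusted p of 0.597 by limma). The beef effect was 0.05 with a 95% interval from -0.20 to 0.29 (adjusted p of 0.734 by limma), which does not hold a fold change of 1.3. After normexp with local backgrounds as measured, ACTG1 was at -1.24 in HER and -0.41 in the beef effect, and neither passed. HER replicate 3 was at -4.49 with that setting, and the HER mean was -0.16 with outlying local backgrounds replaced.

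The signals of the cytoplasmic actins were also the most even. ACTB spanned 1.59-fold over the 8 HF channels, from 111701 to 177887, and 1.59-fold over the 8 beef channels, from 119909 to 191162. ACTG1 spanned 1.71-fold in HF, from 233305 to 398454, and 1.88-fold in the beef channels, from 208637 to 393261. The beef and HF ranges of each gene lay over one another.

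**Figure D3:**
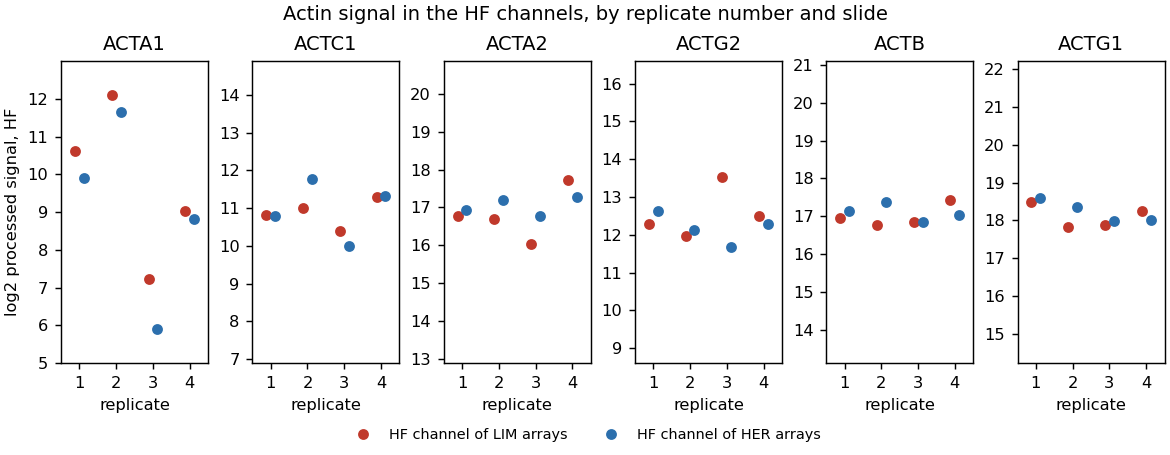
Signal (log2, y axis, equal span in every panel) of the 6 actin probes in the HF channels of the LIM arrays (red) and HER arrays (blue), by replicate number (x axis). For ACTA1 the channels numbered 2 are brightest and those numbered 3 dimmest on both slides, with a span of 73.9-fold, whereas ACTB spans 1.59-fold.

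The isoforms were then compared with each other on the same array, which leaves out any shift that all probes of an array share. The difference between a pair of genes in the ratio was tested over the 8 arrays with an exact two-sided sign-flip permutation test, and p was adjusted over the 15 pairs. The test takes the arrays as independent, although HF bulls recur over them. HF channels of same-numbered arrays ran together (r = 0.62 to 0.82 over probes), so that the p of this test may be too small. All 12 pairs from different classes passed, at adjusted p of 0.0130 to 0.0419. ACTA1 exceeded ACTA2 by 3.49 ± 1.81 (SD, n = 8 arrays) and ACTB by 4.44 ± 1.59 (SD, n = 8 arrays), on 8 of 8 arrays and at the smallest p that 8 arrays allow (exact permutation p = 0.00781, adjusted 0.0130). ACTC1 exceeded ACTA2 by 2.12 ± 0.97 and ACTB by 3.07 ± 0.59 (SD, n = 8 arrays; exact permutation, adjusted p = 0.0130 for both). On every array, both sarcomeric actins were above the other 4 genes.

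The smooth muscle actins lay between. ACTA2 exceeded ACTB by 0.95 ± 0.58 (SD, n = 8 arrays), on 7 of 8 arrays (exact permutation, adjusted p = 0.0213). ACTG2 exceeded ACTB by 0.83 ± 0.79 (SD, n = 8 arrays), also on 7 of 8 arrays (exact permutation, adjusted p = 0.0419). Both smooth muscle actins were above both cytoplasmic actins on 6 of 8 arrays, the exceptions being LIM replicate 1 and LIM replicate 4.

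Within the classes, 2 of 3 pairs differed. ACTA1 exceeded ACTC1 by 1.37 ± 1.33 (SD, n = 8 arrays), on 7 of 8 arrays, with LIM replicate 2 as the exception (exact permutation, adjusted p = 0.0419). ACTB exceeded ACTG1 by 0.21 ± 0.16 (SD, n = 8 arrays), on 6 of 8 arrays (exact permutation, adjusted p = 0.0391). ACTA2 and ACTG2 differed by 0.12 ± 0.89 (SD, n = 8 arrays; exact permutation, adjusted p = 0.711). The 4 arrays of a comparison cannot pass alone, since their smallest p is 0.125, and 0 of 15 pairs passed when same-numbered LIM and HER arrays were averaged before the test, which also leaves 4 values.

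**Figure D4:**
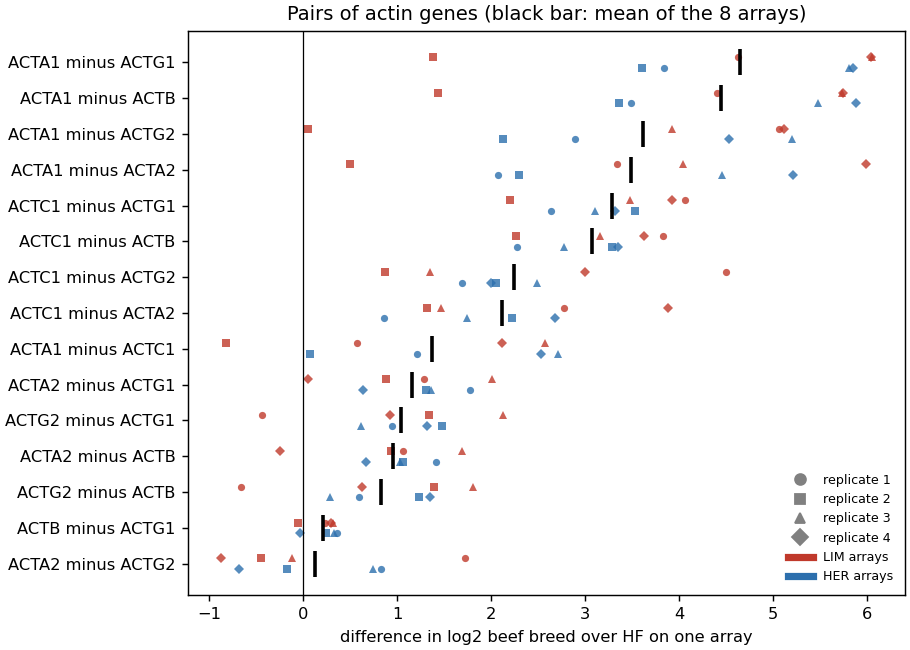
Difference between the genes of each pair (y axis) in log2 ratio of beef breed over HF on the same array (x axis), for the 4 LIM arrays (red) and the 4 HER arrays (blue), with symbols for the replicate number and a black bar for the mean of the 8 arrays. Every difference between a sarcomeric gene and a gene of another class is above 0, and ACTA2 minus ACTG2 lies on both sides of it.

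The response of LIM and of HER was set against each other in the same fit. None of the 6 genes differed (0 of 6 past the threshold, limma), where 0.233% of all probes did. At an unadjusted p of at most 0.05 (limma), 0 of 6 genes and 2586 of the 17631 tested probes passed. For ACTA1 the LIM minus HER difference was 0.08, with a 95% interval from -2.13 to 2.28. For ACTC1 it was 0.60, from -0.13 to 1.34. The intervals of the sarcomeric genes are wide, and a difference of a doubling lies within each. For ACTA2 the difference was 0.12, from -1.02 to 1.26, for ACTG2 0.23, from -1.14 to 1.60, for ACTB 0.30, from -0.11 to 0.71, and for ACTG1 0.33, from -0.16 to 0.82 (limma, adjusted p from 0.432 to 0.981 over the 6 genes). Only the intervals of ACTB and ACTG1 leave out a doubling.

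The genes whose ratio ran most like that of an actin gene over the 8 arrays are given as a description, with Pearson's r over 8 points that share their arrays and may share HF cultures. They were picked for the highest r among all named genes tested, so that a high r alone is no evidence of a link. For ACTA1 they were PPM1A (r = 0.98), ZFYVE19 (0.96), MYH3 (0.93), SIVA1 (0.93) and C10H14orf93 (0.93). Of these, MYH3, the embryonic myosin heavy chain, was at 4.18 in the beef effect (adjusted p of 4.91e-05 by limma), whereas the beef effects of the other 4 lay between -0.22 and 0.19. For ACTA2 they were LGALS1 (0.98), REEP3 (0.98), MYLK (0.97), HCN3 (0.97) and DAP (0.95). MYLK, the kinase of the myosin light chain in smooth muscle contraction, was at 1.96 in the beef effect (adjusted p of 0.00169 by limma), whereas the beef effects of the other 4 lay between 0.22 and 0.47. For ACTB they were RNF114 (0.97), NT5C2 (0.97), RAB33B (0.96), TMCC3 (0.95) and MYL6 (0.94), the last being the light chain of non-muscle and smooth muscle myosin.

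Among the actin genes themselves, ACTB ran with ACTG1 (r = 0.87) and with ACTA2 (0.78) over the 8 arrays. ACTA2 and ACTG2 had r = 0.45, and ACTA1 and ACTC1 had 0.46.

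The proteins that act on actin were counted from lists, beside a median ratio of all tested probes of -0.01 in LIM, -0.06 in HER and -0.04 in the beef effect. The shares of all tested probes called higher, 16% in LIM, 10.4% in HER and 17.7% in the beef effect, are the background of these counts. For the counts lower, it is 3227 of 17631 probes in LIM, 2469 in HER and 3596 in the beef effect. Of 6 tested genes for the length and end capping of thin filaments, 2 were higher in LIM and 1 lower, 3 higher in HER and 1 lower, and 2 higher in the beef effect and 1 lower, with a median beef effect of 0.25. KLHL41, a kelch protein of the sarcomere, rose by a beef effect of 3.85 (adjusted p of 9.94e-05 by limma). LMOD2, a leiomodin that elongates thin filaments, was well above background in 8 beef channels and in no HF channel. It passed the filter on dim probes only through the beef channels. It was at least 15.9-fold higher in LIM and at least 7.12-fold higher in HER. The counts of higher genes above include LMOD2, whose call is therefore a description only. NRAP, which serves the assembly of new myofibrils, fell by 1.14 on the log2 scale and was lower on 8 of 8 arrays (adjusted p of 0.000583 by limma).

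Of 12 tested genes that bind actin monomers or turn over filaments, 5 were higher and 1 lower in LIM, 4 higher and 0 lower in HER, and 5 higher and 1 lower in the beef effect, with a median beef effect of 0.33. The largest beef effects were those of TMSB4X (1.38) and TMSB10 (0.98), the thymosins that hold actin monomers, and of CAP2 (1.07), a cyclase-associated protein that recycles them. CORO1B, a coronin, fell by 0.38. Of 12 tested genes for nucleation and elongation, 2 were higher and 0 lower in LIM, in HER and in the beef effect, with a median beef effect of 0.12 and a count close to that background in LIM and in the beef effect. These were ARPC3 (1.03), a subunit of the Arp2/3 complex, and CTTN (0.74), cortactin, which binds to its branches.

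Of 12 tested genes that cross-link filaments, 3 were higher and 1 lower in LIM, 4 higher and 0 lower in HER, and 4 higher and 1 lower in the beef effect, with a median beef effect of 0.39. TAGLN3 (1.66), CNN2 (0.74) and PLS3 (0.72) had the largest beef effects, and FSCN1, the bundling protein fascin, fell by 0.62. Of 12 tested genes of the CCT chaperonin and of prefoldin, which fold newly made actin, 1 was higher and 3 lower in LIM, 1 higher and 0 lower in HER, and 1 higher and 3 lower in the beef effect, with a median beef effect of -0.25. The counts lower in LIM and in the beef effect were close to the background of all tested probes. CCT5, CCT7 and TCP1 fell by 0.56, 0.48 and 0.45, whereas PFDN1 rose by 0.41. Serum response factor, which drives many actin genes, was not itself among the genes tested here. Of its cofactors and targets, 6 genes were tested. ABRA (2.42), an actin-binding activator of the pathway, rose in LIM, in HER and in the beef effect, and FHL2 fell by 0.59 in the beef effect. The other 4 (MRTFB, ELK3, ELK4 and VCL) did not pass, and the median beef effect of the 6 was -0.06.

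**Figure D5:**
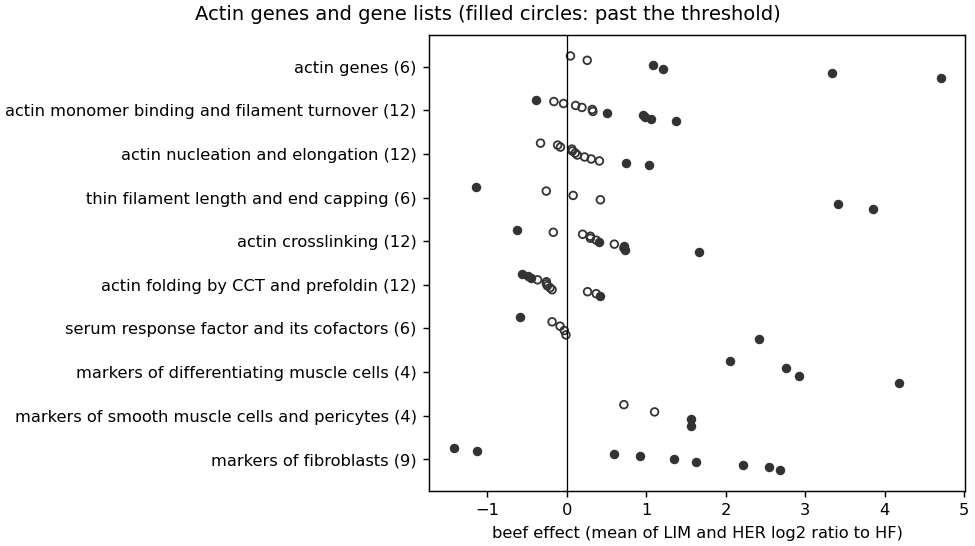
Beef effect (mean of the LIM and HER log2 ratios to HF, x axis) of the actin genes and of each tested gene of 6 lists of actin-binding or actin-making proteins and of 3 marker lists (y axis, number of tested genes in brackets), with filled circles for genes past the threshold. LMOD2 is at 3.41, which stands for a lower bound, since it was not well above background in HF. The sarcomeric actins stand at 3.33 and 4.70, beside 2.05 to 4.18 for the markers of differentiating muscle cells.

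Markers of cell types were counted in the same way. Of the markers of myoblasts, 5 of 6 were on the array, each well above background in 16 of 16 channels, and 4 of 5 rose in the beef effect (MYF5, MYOD1, CDH15 and CHRNA1). Of the markers of differentiating muscle cells, 5 of 8 were on the array and the 4 tested ones (MYOG, MYH3, TNNC1 and TNNT1) rose in LIM, in HER and in the beef effect. Their summed signal over the 5 genes lay between 480 and 2919 in HF, between 3435 and 16518 in HER, and between 11266 and 30777 in LIM. Their part in the sarcomeric actin result was not tested.

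Of the markers of smooth muscle cells and pericytes, 4 were tested, and 2 rose in the beef effect (MYH11 and MCAM), with a summed signal between 6927 and 27181 in HF, between 10684 and 39956 in HER and between 9625 and 45373 in LIM. Of the 9 markers of fibroblasts, 7 rose in the beef effect (the collagens COL1A1, COL1A2 and COL3A1 among them) and 2 fell (PDGFRA and TCF21), with a summed signal between 55505 and 227611 in HF, between 279591 and 545909 in HER and between 364631 and 788527 in LIM. The HF channel with the brightest ACTA2 was that of LIM replicate 4. It also had the highest summed HF signal for fibroblasts (227611), myoblasts (35488) and differentiating muscle cells (2919), but not for smooth muscle cells and pericytes (16498). A single bright probe carried most of some of these sums. In that channel CNN1 gave 15786 of the 16498, and MYOD1 gave 29428 of the 35488. Of the markers of other cells, 1 of 4 tested for adipocytes rose and 2 fell in the beef effect, 0 of 2 for endothelial cells passed, and 1 of 3 for leukocytes rose. The part of these cells in the smooth muscle actin result was not tested.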

How the data were processed

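RNA of 8 arrays was analysed as grouped by the labels (4 HER against HF, 4 LIM against HF). The authors deposited the output of Feature Extraction 10.7.3.1 for each array: a log10 ratio of red over green and a processed intensity per channel, both after background subtraction and dye normalization, with the median intensity of spot and local background and marks for outlying, saturated and dim spots. The deposited table of the whole series held the same log10 ratio (largest difference 0). The files hold no gene names or probe sequences. Names came from RefSeq accessions and were looked up in a gene table of ARS-UCD2.0, which named 7793 of 20693, and coordinates were not printed because the array was designed on another build, Btau_3.1. Whether an actin probe also binds transcripts of another actin gene was not tested.

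The log10 ratio was turned to log2 of the beef breed over HF, with the sign turned on the HER arrays. Control and outlying spots were dropped, and spots of a probe were averaged (ACTB was spotted 6 times, the other actin genes 2 times). Probes marked as well above background on 4 or more of the 16 channels were tested with limma 3.58.1 in R 4.3.3 (lmFit, eBayes, a mean per comparison, 8 arrays in 1 fit). With 4 arrays in each comparison, their number sets the precision. In place of the t-test of the study's methods, limma was used, and the t-test was run as an alternative. Pairs of genes were tested with Python 3.11.15. A bound for a gene not well above background in HF was taken against the higher, in each HF channel, of its own signal and the lowest signal marked as well above background, or from the fit where that fold was smaller. On simulated data with 17629 probes, the beef effect recovered 92% of the true changes of 2 (log2) and 75% of the true changes of 1. The simulated arrays were independent and few of their probes were changed. Here HF bulls recur over the arrays and 38.1% of all probes were called in the beef effect, so that these shares are not the power in these data.

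Named were the 6 actin genes, at most 3 genes per list and direction with the largest beef effect past the threshold, marker genes, and for ACTA1, ACTA2 and ACTB the 5 named genes of highest r. The members and lists were chosen with earlier results of these data known. Alternatives covered the background correction, centring, the filter, the test, the threshold, array weights, a block for the replicate number, and each array left out in turn. The qPCR and microscopy of the study were not analysed here.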

Additional observations from a re-analysis of the deposited data

Results flagged for a closer look

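The log2 signal of ACTG2 in the HER channels had 1 sample apart from the others. HER replicate 3 was at 11.97, and its gap to the nearest of the other 3 channels was 0.88 of the whole range, above the critical value of 0.829 for 4 samples. Of 30 groups of values of the actin genes examined in this way, this was 1, where chance gives about 1 in 20. HER replicate 3 was also the dimmest HER channel for the other 5 actin genes.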

How the results depend on the processing

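The beef effects of ACTA1, ACTC1 and ACTG2 kept their direction and their call under all 19 alternatives, and ACTC1 in LIM under all 21. Some of these alternatives could hardly change a result. The series table held the same ratios, and limma at the unadjusted threshold of the methods was the same fit with a looser cutoff. The mean of all probes of a gene left each actin ratio as it was, since each gene had 1 probe. Normexp with local backgrounds as measured turned 3 directions. On HER replicate 3, the red local background passed 500 at 38 spots and reached 775167, where its median was 37, and the ratios of that array then had an interquartile range of 0.0115 against 0.731 in the scanner ratio. With that setting ACTB was at -0.77 in HER and -0.12 in the beef effect, ACTG1 at -0.41 in the beef effect, 2 actin genes were called in LIM and 0 in HER, and limma called 0 probes in HER (2857 at an unadjusted p under 0.05, ACTA1 and ACTC1 among them), 3261 in the beef effect and 0 for LIM minus HER (2426 unadjusted). With marked backgrounds replaced, LIM minus HER had 1 probe, and ACTA2 in HER an adjusted p of 0.0530 (limma).

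The methods' t-test, adjusted, called 1 actin gene (ACTC1) and 1002 probes in LIM, and 0 actin genes and 2 probes in HER. At the methods' threshold it called 2 actin genes in LIM and 4 in HER, where ACTG2 was added. LIM minus HER, with 41 probes, had 76 without a filter, 1 at 8 of 16 channels, 2482 at the methods' threshold with limma, and 224 with array weights. Array weights also called ACTG2 in LIM (1.67).

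Same-numbered arrays deviated together only in part (r = -0.24, 0.13, 0.30 and 0.54 for numbers 1 to 4 over probes), so the numbers were not taken as pairs. The HF channels alone ran together by number (r = 0.65, 0.62, 0.68 and 0.82, against at most 0.016 across numbers). HF bulls recur over the slides, since the study had 4 of them. That same-numbered arrays shared an HF culture is a hint from the data and not from the labels. With the replicate number as a fixed block, ACTB in LIM lost its call (limma, adjusted p = 0.0502), no other actin call changed, and LIM minus HER had 0 probes (2744 unadjusted). As a random block, chosen after seeing the data (correlation 0.19), LIM minus HER had 147 and no actin call changed. With means of same-numbered arrays, also chosen after seeing the data, 0 of 15 pairs of actin genes passed.

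Leaving out 1 array gave 2 to 4 actin genes in LIM and 2 to 3 in HER, and 3796 to 7011 probes in LIM (lowest without LIM replicate 3), 1527 to 5439 in HER (1574, 1527 and 2660 without HER replicates 1, 2 and 3) and 1 to 14 for LIM minus HER. The beef effect of ACTG1 ranged from -0.030 (without LIM replicate 2) to 0.13. The LIM minus HER differences, none of them called, ranged from -0.47 to 0.97 for ACTA1 (-0.24, -0.30, -0.47 and -0.27 without HER replicates 1 and 2 and LIM replicates 3 and 4), from -0.24 to 0.61 for ACTA2 (-0.04 and -0.24 without HER replicate 4 and LIM replicate 3) and from -0.19 to 0.75 for ACTG2 (-0.04 and -0.19 without LIM replicates 2 and 3). The cause of these shifts was not tested beyond the values given.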
